A study of Mus musculus with 2 samples.

Results

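ATP-binding cassette (ABC) transporters were followed in Ba/F3 cells that carried the BCR-ABL fusion kinase and were treated with imatinib, an inhibitor of the ABL kinase. The genes were taken by name: every mouse gene whose symbol begins with Abc, a subfamily letter from a to g and a number, and which had a probe set naming that gene alone. This gave 48 genes, on 49 probe sets, of 19935 genes measured in the same way. The ABC proteins Tap1, Tap2 and Cftr carry other symbols and lie outside the name rule.

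Ba/F3 is a mouse line of early B-lineage character that needs interleukin-3 (IL-3) to grow, and BCR-ABL, the kinase of chronic myeloid leukaemia, replaces that need. Both groups expressed BCR-ABL constitutively and, by the labels, received 5 µM imatinib during 6 h. The first group, titled Live-IL3, was grown with IL-3, and the second, titled Live-NoIL-3, without it, with 1 array each; the submitters' design describes the former as resistant to the drug and the latter as going on to apoptosis. The labels conflict in places: the description of the Live-IL3 sample says that IL-3 was absent, and the source name of the Live-NoIL-3 sample can be read as lacking imatinib too. Every direction below follows the titles and would turn over if those titles were exchanged. Whether the BCR-ABL cells were a clone or a pool is not given in the sources used here.

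ABC proteins couple the binding and hydrolysis of ATP to the movement of a substrate across a membrane. Subfamilies B, C and G include the drug efflux pumps, among which P-glycoprotein and ABCG2 are known to carry imatinib out of cells; the mouse makes P-glycoprotein from the neighbouring genes Abcb1a and Abcb1b. Subfamily A moves lipids, subfamily D serves peroxisomes and lysosomes, and some members of B lie in mitochondria. Subfamilies E and F have the ATP-binding domains but no membrane span, and act on ribosomes.

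Each probe set had 1 deposited value per array, on a log scale taken as log2, relative to a baseline of that probe set that is not given. A deposited value therefore says how far a gene lay from its own baseline and not how strongly it was expressed. No level, and no statement on whether a gene was detected, can be drawn from it. The difference between the arrays, with IL-3 minus without IL-3, cancels the baseline and is used throughout. With 1 array a group there is no replicate and no test, so that differences are described by size, with fixed marks at 1.5-fold and 2-fold. A rough measure of spread within the arrays comes from 998 genes with over 1 probe set. Within these genes the differences had a pooled SD of 0.14 on the log2 scale. This probe set SD does not cover variation between cultures, and it does not suit all genes alike. In groups of genes by mean value, the scaled median absolute deviation of the differences ran from 0.10 to 0.42, largest at the highest means. The number of arrays limits the precision of every value below.

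On the array with IL-3, 2 ABC genes were at least 1.5-fold higher: Abce1, which encodes the ribosome recycling factor, and Abcb1b, a P-glycoprotein gene. Another 2 were at least 1.5-fold lower, both of them past 2-fold: Abca2, a lipid transporter of endosomes and lysosomes, and Abcg3, a rodent relative of Abcg2. The remaining 44 genes differed by less than 1.5-fold, and 28 of the 48 (58.3%, against 55.9% of all genes) differed by less than the probe set SD. Over all genes, 3.52% were at least 1.5-fold higher and 2.71% at least 1.5-fold lower, so that 2 of 48 (4.17%) in each direction is close to the background. Among the 4984 genes of highest mean value, which included Abce1 and Abcb1b, 12.8% were at least 1.5-fold higher. At 2-fold, 0 ABC genes were higher, where the background was 0.441%, and 2 were lower, where it was 0.657%.

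The sequences before the start sites of these 4 genes and of Abcb1a are shown because Abcb1a and Abcb1b, neighbours that make the same pump, had differences of unlike size. Each is the 250 bases before the start in RefSeq's GRCm38.p6 table, 5′ to 3′ on the gene's strand, in lower case. Capitals mark CCAAT (read on either strand) in Abcb1b and Abce1, and TGACGTCA, the cyclic AMP response element, at the right end of Abce1.
Abcb1b (chr5:8797897-8798146, plus strand): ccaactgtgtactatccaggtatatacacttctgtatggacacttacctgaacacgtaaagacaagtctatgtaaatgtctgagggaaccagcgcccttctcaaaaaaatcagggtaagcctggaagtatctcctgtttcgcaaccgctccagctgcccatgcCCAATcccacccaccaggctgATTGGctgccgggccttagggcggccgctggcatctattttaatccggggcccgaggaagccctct
Abcb1a (chr5:8566841-8567090, plus strand): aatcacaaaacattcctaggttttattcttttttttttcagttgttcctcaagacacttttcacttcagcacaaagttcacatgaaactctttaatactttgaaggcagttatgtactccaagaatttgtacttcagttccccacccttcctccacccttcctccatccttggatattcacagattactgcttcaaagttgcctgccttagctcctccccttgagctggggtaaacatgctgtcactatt
Abce1 (chr8:79711741-79711990, minus strand): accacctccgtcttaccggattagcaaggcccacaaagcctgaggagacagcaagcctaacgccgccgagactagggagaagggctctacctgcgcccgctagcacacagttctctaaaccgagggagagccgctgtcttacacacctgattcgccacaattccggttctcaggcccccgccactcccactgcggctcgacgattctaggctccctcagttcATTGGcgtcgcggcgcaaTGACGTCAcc
Abca2 (chr2:25428349-25428598, plus strand): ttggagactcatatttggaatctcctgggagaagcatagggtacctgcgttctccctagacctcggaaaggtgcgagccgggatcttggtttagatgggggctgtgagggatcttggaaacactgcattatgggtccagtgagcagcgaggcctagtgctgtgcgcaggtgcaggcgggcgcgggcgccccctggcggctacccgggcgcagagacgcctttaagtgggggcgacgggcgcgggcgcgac
Abcg3 (chr5:104982718-104982967, minus strand): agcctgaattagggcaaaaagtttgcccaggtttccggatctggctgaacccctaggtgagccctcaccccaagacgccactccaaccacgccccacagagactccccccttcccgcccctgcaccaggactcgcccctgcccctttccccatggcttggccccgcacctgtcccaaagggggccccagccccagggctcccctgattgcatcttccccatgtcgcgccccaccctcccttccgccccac
The Abcb1a window held 0 CpG dinucleotides and 40.4% G and C, whereas the Abcb1b window held 9 CpG and 52.8%. The Abce1 and Abca2 windows each held 20 CpG and the Abcg3 window 9, against a median of 12 over the 45 ABC promoters and of 6 over all 32851 promoters. TGACGTCA was searched after these sequences had been read: it stands in 1.55% of all promoters and, among the 45 promoters of 38 ABC genes in the table, in those of Abce1 and Abcg2. CCAAT, also added then, stands in 33.8% of all promoters and in 13 of the 45. Whether any feature of these windows bears on the differences, including those of Abcb1a and Abcb1b, was not tested.

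Further motifs were searched on both strands of the same windows, with overlapping matches counted. The E-box CACGTG was in 5 of the 45 ABC promoters (Abca1, Abca15, Abca8a, Abcc4 and Abcf1) and in 6.02% of all promoters. The antioxidant element TGACNNNGC, whose first letters it shares with the AP-1 site and the cyclic AMP element, was in 4 promoters, of Abcc2, Abcc4 and Abcc10, and in 10.2% of all. The STAT motif TTCNNNGAA was in the promoter of Abcc5 alone among the ABC genes and in 7.02% of all promoters, and the AP-1 site TGACTCA was in 0 of the 45 and in 4.46% of all. None of these letters stood in the windows of the 4 genes past 1.5-fold.

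Abcb1b led the drug efflux group. It stood at 0.73 with IL-3 and at -0.06 without, a difference of 0.79, or 1.73-fold higher with IL-3, and was 255th of 19935 genes counted from the highest difference. The value moved away from the baseline on the array with IL-3 and lay near it on the other.

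Abcb1a stood at -0.18 with IL-3 and -0.44 without, a difference of 0.26 or 1.20-fold. Both P-glycoprotein genes thus lay on the same side, with the larger difference in Abcb1b. Abcb4, the third gene of this neighbourhood, which encodes the phosphatidylcholine transporter of bile, stood at -0.13 and -0.19 (difference 0.06). The coding sequences of these neighbours are much alike, so that a probe set of one may take signal from another, and the part of this in the values was not tested.

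Abcg2, the breast cancer resistance protein and the other well-known imatinib pump, stood at -0.15 with IL-3 and -0.08 without, a difference of -0.07, within the probe set SD. Abcc1, the multidrug resistance protein that exports glutathione conjugates, stood at 0.19 and 0.08 (difference 0.10), and Abcc4, an exporter of cyclic nucleotides and nucleotide analogues, at 0.21 and 0.09 (difference 0.12). Both lay above their baseline on both arrays, and their differences also stayed within that SD.

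Abcc5, a further exporter of cyclic nucleotides, had the lowest difference of the efflux group: it stood at -0.36 with IL-3 and 0.02 without, 1.29-fold lower with IL-3. Abcc6, whose loss causes soft-tissue calcification, stood at -0.27 and -0.09 (difference -0.17). These were the efflux genes below 0 by more than the probe set SD.

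The other conjugate and bile salt pumps showed small differences. Abcc2, the canalicular conjugate exporter of the liver, stood at -0.08 and -0.15 (difference 0.07), Abcc3, its basolateral counterpart, at -0.31 and -0.26 (difference -0.05), and Abcb11, the bile salt export pump, at -0.09 and -0.18 (difference 0.09). Abcc10 stood at -0.18 and -0.22 (difference 0.04), and Abcc12 at -0.04 and -0.19 (difference 0.15). All 5 lay below their baselines on both arrays.

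In the whole efflux group, 9 of 13 genes had a difference above 0 with a median of 0.07, against 59.8% above 0 and a median of 0.04 over all genes. Of these 13, 1 (7.69%) was past 1.5-fold, on the higher side, where 3.52% of all genes lay. Of the 4984 genes of highest mean value, which included Abcb1b, 12.8% lay there. The range ran from -0.37 for Abcc5 to 0.79 for Abcb1b.

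**Figure D1:**
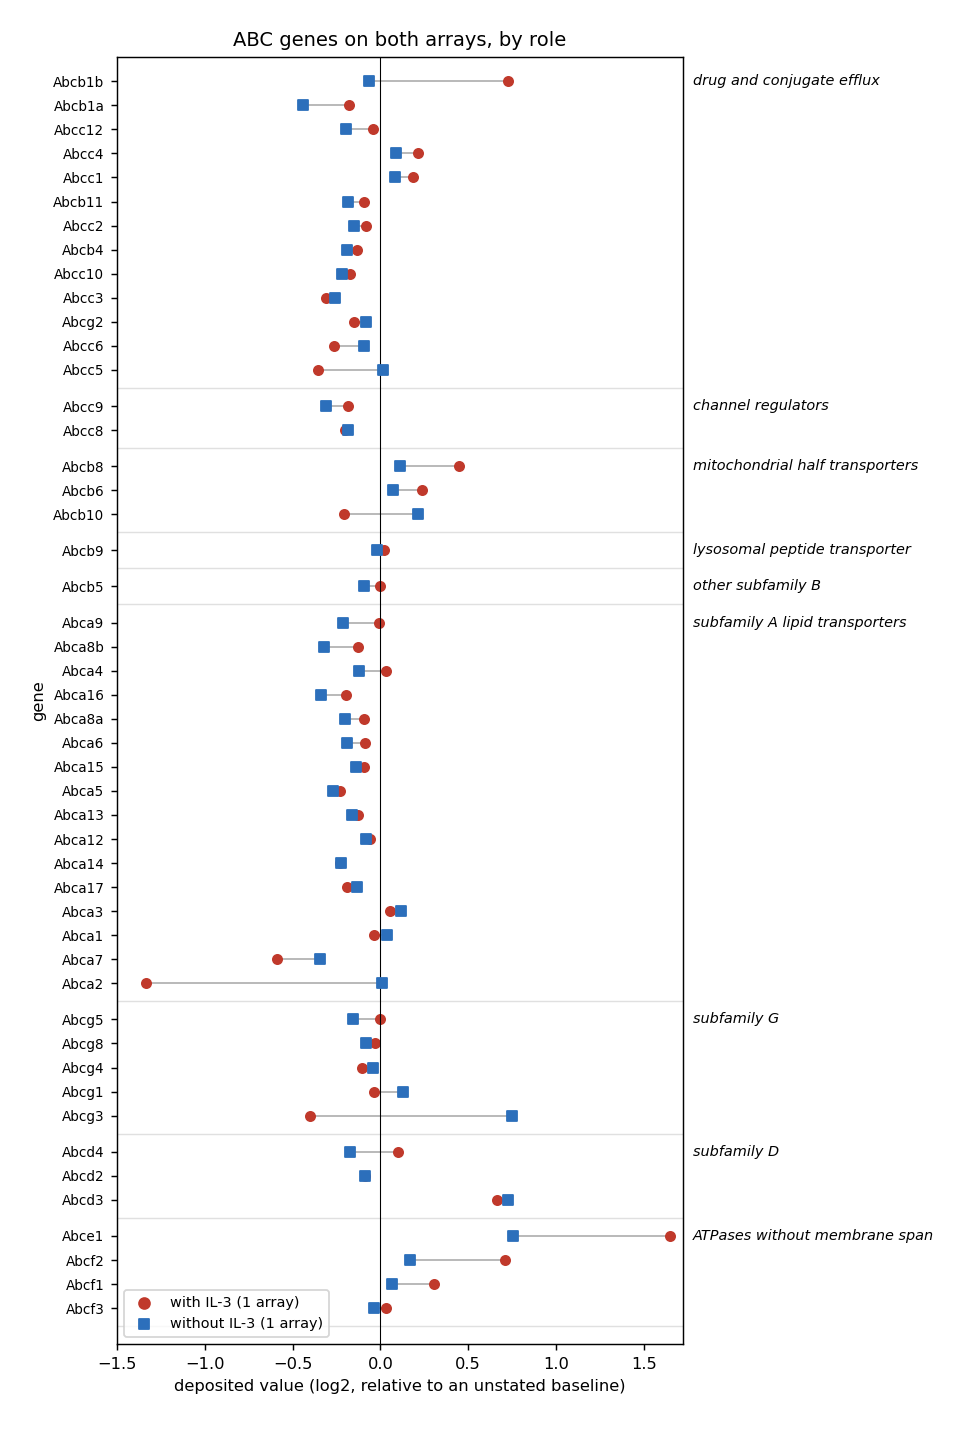
Deposited values (log2, relative to an unstated baseline) of the 48 ABC genes on the array with IL-3 (red circles) and the array without (blue squares), joined by a grey line and ordered by difference within each role; each point is 1 array. Abcb1b and Abce1 have the longest lines to the right with IL-3, and Abca2 and Abcg3 the longest to the left.

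Among genes known to act beside the efflux pumps, those for uptake transporters and for regulators of pump genes all lay within 1.5-fold (11 of 13 measured), with 7 above 0 and a median of 0.13. Over all genes, 18694 of 19935 lay within 1.5-fold, 59.8% lay above 0 and the median was 0.04. The highest was Slco4a1, an organic anion uptake transporter, which stood at 0.26 with IL-3 and -0.26 without (difference 0.52). The lowest was Nfe2l2, which encodes the antioxidant regulator NRF2, at 0.31 and 0.72 (difference -0.41). Ybx1, which encodes the Y-box protein known to bind the P-glycoprotein promoter, stood at 0.55 and 0.25 (difference 0.30).

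The subfamily E and F genes all lay above 0, with a median difference of 0.39 over 4 genes. Over all genes, 59.8% lay above 0 and the median was 0.04. Over the 4984 genes of highest mean value, which included Abce1 and Abcf2, the median was 0.11. Abce1 splits ribosomes after termination so that their subunits can be used again. It stood at 1.65 with IL-3 and 0.76 without, a difference of 0.89, or 1.86-fold higher with IL-3, and was 157th from the highest of all genes. Abce1 was above its baseline on both arrays and further above it with IL-3.

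Abcf2 stood at 0.71 with IL-3 and 0.17 without, a difference of 0.54 or 1.45-fold, just short of the 1.5-fold mark. Abcf1, a partner of initiation factor eIF2, stood at 0.30 and 0.07 (difference 0.23), and Abcf3, a relative of the yeast factor Gcn20, at 0.03 and -0.03 (difference 0.07). On the deposited scale the order of the differences was therefore Abce1, Abcf2, Abcf1 and Abcf3. Of these, Abcf1 and Abcf3 lay 0.23 and 0.07 from 0, beside a probe set SD of 0.14.

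The size for Abce1 depended on how the trend of the differences with the mean value was treated. With a loess trend over all probe sets subtracted, Abce1 was 1.37-fold higher (0.46) and fell short of 1.5-fold, whereas Abcb1b stayed at 1.69-fold (0.76). Abcf2 had a difference of 0.47 after that step, so that Abce1 and Abcf2 changed places in the order. The split past 1.5-fold was then 1 higher and 2 lower, where 1.79% and 3.71% of all genes lay, against 2 and 2 on the deposited scale.

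Partner genes of these ribosome factors, 8 of 10 measured, had 6 members above 0 and a median of 0.33. At least 1.5-fold higher was 1 member, against 3.52% of all genes. Of the 4984 genes of highest mean value, which include that member, 12.8% passed this mark. That member was Gspt1, which encodes the termination factor eRF3, at 1.57 with IL-3 and 0.93 without (1.57-fold higher). Etf1, which encodes its partner eRF1, was the lowest, at 0.82 and 0.96 (difference -0.14). Pelo and Hbs1l, which act with ABCE1 on stalled ribosomes, had differences of 0.24 and 0.22.

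**Figure D2:**
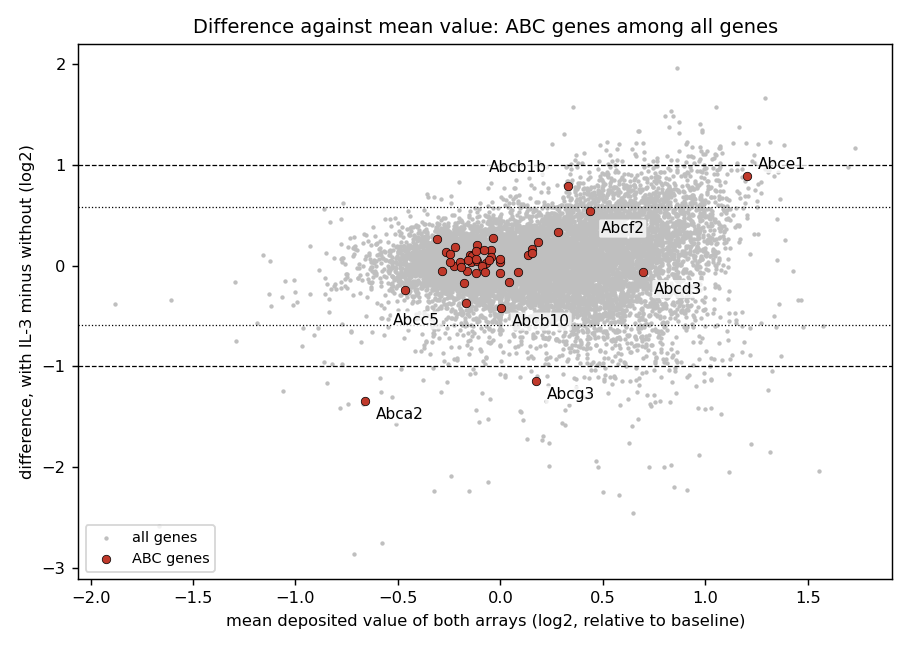
Difference between the arrays (log2, with IL-3 minus without) against the mean deposited value of both arrays, for all 19935 genes (grey) and the 48 ABC genes (red); dotted and dashed lines mark 1.5-fold and 2-fold. Abcb1b and Abce1 lie in the wide right-hand part of the cloud, and Abca2 lies at its sparse left edge with a difference of -1.34.

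The subfamily A genes held the lowest difference of the ABC set. Abca2, known for sphingolipid and sterol handling in late endosomes, stood at -1.33 with IL-3 and 0.01 without, a difference of -1.34, or 2.54-fold lower with IL-3. It was the 56th of 19935 genes from the lowest. The array without IL-3 sat at the baseline and the array with IL-3 far below it.

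Abca7, a phospholipid transporter, was the next lowest of the subfamily, at -0.59 and -0.35 (difference -0.24). Abca1, the cholesterol and phospholipid exporter of macrophages, stood at -0.04 and 0.04 (difference -0.07), and Abca3, the surfactant lipid transporter of lung lamellar bodies, at 0.05 and 0.12 (difference -0.06). The last 2 were within the probe set SD.

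The highest of the subfamily was Abca9, at -0.01 with IL-3 and -0.21 without (difference 0.21). Over the 16 measured subfamily A genes the median was 0.04, 10 (62.5%) were above 0, and Abca2 was the single gene past 1.5-fold. Over all genes the median was also 0.04, 59.8% lay above 0, and 2.71% were at least 1.5-fold lower.

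Of the subfamily G genes other than Abcg2, Abcg3 stood at -0.40 with IL-3 and 0.75 without, a difference of -1.15, or 2.22-fold lower with IL-3, the 81st from the lowest of all genes. Its value crossed the baseline, being below it with IL-3 and above it without.

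Abcg1, which passes cholesterol to lipoproteins, stood at -0.04 and 0.13 (difference -0.16), and its relative Abcg4 at -0.10 and -0.04 (difference -0.06). Abcg5 and Abcg8, the partners that export plant sterols in gut and liver, had differences of 0.16 and 0.05. Abcg3 thus stood apart in size from the other members, which lay between -0.16 and 0.16, Abcg2 included.

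Sterol efflux regulators and partners, 10 of 12 measured, had a median of 0.02 with 5 above 0. Past 1.5-fold on the higher side, where 3.52% of all genes lay, were 2 genes: Scarb1, the high-density lipoprotein receptor, at 0.98 and 0.18 (1.75-fold), and Srebf1, a regulator of lipid synthesis, at 0.60 and -0.01 (1.52-fold). Of the 4984 genes of highest mean value, which included Scarb1, 12.8% lay there. Lowest were Npc2 and Npc1, which move cholesterol out of lysosomes, with differences of -0.51 and -0.48. Nr1h3, the sterol-sensing receptor known to induce Abca1 and Abcg1, differed by 0.07.

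**Figure D3:**
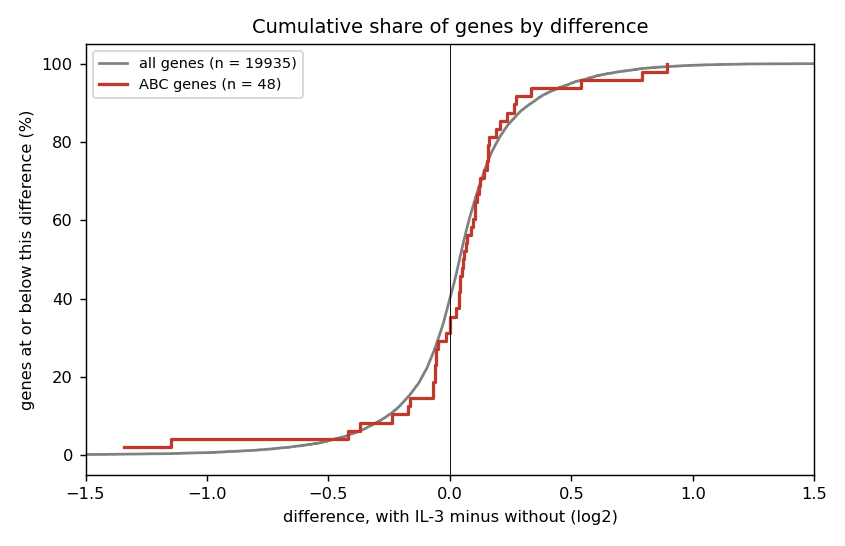
Cumulative share (%) of genes at or below each difference (log2, with IL-3 minus without), for all 19935 genes (grey) and the 48 ABC genes (red), each gene counted once; the axis shows differences up to 1.5 in size. The curves run close together, with medians of 0.04 and 0.06, and the 2 steps at the far left are Abca2 and Abcg3.

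The mitochondrial ABCB transporters went both ways. Abcb8, linked to iron export from mitochondria, stood at 0.45 with IL-3 and 0.11 without (difference 0.34, 1.26-fold higher). Abcb6, a porphyrin transporter, stood at 0.24 and 0.07 (difference 0.16). Abcb10, which supports haem synthesis in erythroid cells, stood at -0.21 and 0.21 (difference -0.42, 1.34-fold lower), the third lowest of the 48.

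Iron-sulphur and haem partners, 11 of 12 measured, all lay within 1.5-fold, with 5 above 0 and a median of -0.01. Of all 19935 genes, 18694 lay within 1.5-fold and 59.8% above 0. The lowest was Alas1, the first enzyme of haem synthesis, at 0.28 and 0.78 (difference -0.50). The highest was Tmem14c, a porphyrin transporter of the mitochondrial membrane, at 0.44 and -0.002 (difference 0.44).

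In subfamily D, Abcd3, the abundant peroxisomal membrane protein PMP70, stood at 0.67 with IL-3 and 0.73 without (difference -0.06), above its baseline on both arrays to nearly the same extent. Abcd2, which takes very long chain fatty acids into peroxisomes, stood at -0.09 on both arrays (difference 0.001). Abcd4, which passes cobalamin (vitamin B12) out of lysosomes, stood at 0.10 and -0.17 (difference 0.27, 1.21-fold higher).

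Cobalamin partners, all 8 measured, had 6 above 0, where 59.8% of all genes lay, and a median of 0.21. They moved apart at the ends. Lmbrd1, which encodes the lysosomal partner of ABCD4, stood at 0.31 with IL-3 and 1.11 without, 1.74-fold lower with IL-3, whereas Mmachc, which processes the vitamin in the cytosol, stood at 1.29 and 0.67, 1.53-fold higher. Abcd4 and its direct partner Lmbrd1 therefore had differences of opposite sign. Of 11 measured peroxisome partners, 5 were above 0, with a median of -0.05; Scp2, a sterol carrier and thiolase gene, was 2.09-fold lower (0.16 and 1.22), and Acaa1a, a peroxisomal thiolase, was the highest (difference 0.31).

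Abcb9, a peptide transporter of lysosomes, stood at 0.02 and -0.02 (difference 0.04). Its relatives Tap1 and Tap2, which pump peptides into the endoplasmic reticulum for class I presentation, were lower with IL-3. Tap1 stood at 0.14 and 0.36 (difference -0.23), and Tap2 at -0.20 and 0.52 (difference -0.72, 1.65-fold lower). Their partners in antigen presentation, 13 of 15 measured, were all within 1.5-fold, with a median of -0.01, from -0.41 for Tapbp, the tapasin gene, to 0.46 for Psme2, a proteasome activator. Of all 19935 genes, 18694 lay within 1.5-fold.

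The last genes were Abcb5, with differences of 0.05 and 0.09 on its 2 probe sets, and the sulphonylurea receptor genes Abcc8 and Abcc9, which regulate potassium channels, at -0.02 and 0.12. None of these passed the probe set SD.

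**Figure D4:**
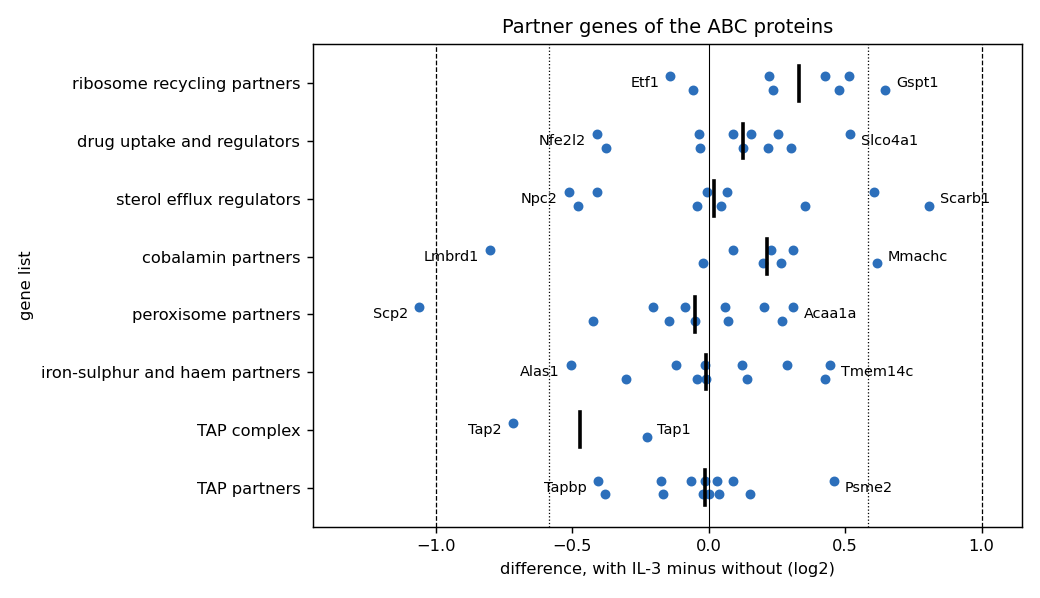
Differences (log2, with IL-3 minus without) of the genes in each partner list; each point is 1 gene, black bars are list medians, names mark the lowest and highest gene, and dotted and dashed lines mark 1.5-fold and 2-fold. The ribosome recycling partners have the highest median (0.33), and Scp2 and Lmbrd1 lie farthest to the left.

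Markers of other lineages were read beside these values, as differences only. B-lineage markers, 7 of 8 measured, ran from -0.35 (Cd79a) to 0.23 (Vpreb2), and whether they were expressed cannot be read from baseline-relative values. Of 6 mast cell and basophil markers, 3 lay past 1.5-fold on the lower side, against 2.71% of all genes, and 2 were above 0: Fcer1a, Cpa3 and Ms4a2 differed by -2.46, -1.11 and -0.92, Mcpt8 by -0.09, Hdc by 0.003 and Kit by 0.18. Of 6 granulocyte and macrophage markers, 2 lay past that mark on the lower side and 2 were above 0: Itgam and Adgre1 differed by -1.08 and -0.79, Csf1r and Elane by -0.11 and -0.07, and Lyz2 and Mpo by 0.24 and 0.17. Both lists thus went both ways, and their part in the differences of the ABC genes was not tested. In RNA from a whole culture, a change in the number of cells of a kind and a change in RNA per cell cannot be told apart. Of the remaining markers, Cd3e and Cd3g differed by 0.08 and -0.80, Col1a1 and Col3a1 by 0.13 and -0.003, and 0 of 2 erythroid markers were measured.

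As deposited, median-centred, quantile-normalized or with the loess trend subtracted, the 4 genes past 1.5-fold kept their direction. Abca2 lay between 2.36-fold lower (quantile normalization) and 2.56-fold lower (median centring), and Abcg3 between 2.22-fold and 2.33-fold lower. Abcb1b lay between 1.66-fold and 1.73-fold higher. Among these 4 scalings Abce1 moved most, from 1.37-fold with the loess trend subtracted to 1.86-fold on the deposited scale.

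**Figure D5:**
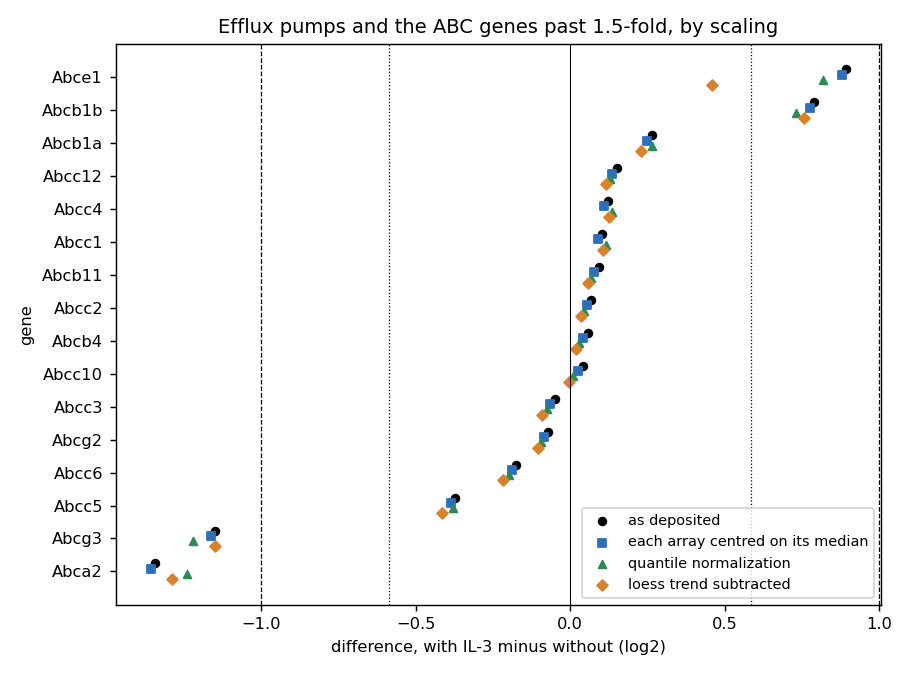
Differences (log2, with IL-3 minus without) of the 13 efflux genes and of Abce1, Abcg3 and Abca2 on the deposited scale and under 3 other scalings; each marker is 1 gene under 1 scaling, and dotted and dashed lines mark 1.5-fold and 2-fold. The markers of each gene lie close together except for Abce1, where the loess value is 0.46 against 0.89 as deposited.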

How the data were processed

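RNA from 2 cultures was hybridised to mouse Gene 1.0 ST arrays as biotin-labelled sense-strand cDNA, per the labels' protocols. The deposited values were read as log2 values relative to a baseline per probe set; the labels do not state summarisation, normalization, log base or baseline. If the values are natural logs, the folds are too small. Of 28815 probe sets, 21780 had 1 gene symbol in the platform annotation, 1605 several and 5430 none; only the first were named, and all 48 ABC identifiers matched RefSeq (GRCm38.p6). Each gene was represented by its probe set of highest mean over the arrays. Genes were named by rule: all efflux genes, all past 1.5-fold, all mitochondrial, D, E and F members, and the extremes of the other subfamilies and lists; all other names, such as Ybx1, Nr1h3, Abca1 and Abcg1, were chosen after their values were seen. The members and lists were chosen with earlier results of these data known. Counting was tested on simulated data at the 2-fold mark alone, with noise smaller than the probe set SD. Recovery of the planted changes under quantile normalization was not part of that check. Alternatives were median centring, quantile normalization, a subtracted loess trend (statsmodels 0.14.6, fraction 0.3), probe set means, a filter at the median and natural logs.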

Additional observations from a re-analysis of the deposited data

How the results depend on the processing

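The counts of 2 higher and 2 lower ABC genes at 1.5-fold, and of 0 higher and 2 lower at 2-fold, were the same after median centring, quantile normalization and averaging of probe sets. Averaging could not change these counts, because only Abcb5 had 2 probe sets, with differences of 0.05 and 0.09. Median centring moved every difference by the same small amount (array medians -0.03 with IL-3 and -0.05 without). With the loess trend subtracted, 1 gene was at least 1.5-fold higher, where 1.79% of all genes lay, because Abce1 moved to 0.46. Among the 16 ABC genes at or above the median of mean values, 1 lay past 1.5-fold on the lower side and 1 past 2-fold, since that filter leaves out Abca2. Of all 9968 genes kept by that filter, 4.30% and 1.01% lay there. The filter uses the mean of the same 2 values whose difference is counted, so these counts are no check of the differences. Abca2 (-1.33 with IL-3, 0.01 without) fell out through its low value with IL-3. Abcg3 (-0.40 with IL-3, 0.75 without) stayed through its high value without IL-3. Read as natural logs, the values gave 2 genes at least 2-fold higher, Abce1 (2.44-fold) and Abcb1b (2.20-fold), where 2.10% of all genes lay. Past 1.5-fold were 3 in each direction, where 7.40% of all genes were higher and 5.42% lower. Abca2 was then 3.83-fold and Abcg3 3.15-fold lower. The median difference of the ABC genes lay between 0.03 and 0.09 in all 7 settings, and no named gene past 1.5-fold changed sign. Natural logs, probe set means and the filter could not change the sign of these genes, so those settings say nothing on it. No paired analysis was possible because each group had 1 array. The lack of replicates and of any expression level limits every value.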

Other observations

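Several ABC genes are neighbours in the RefSeq gene order, and their differences can be set side by side. The lipid transporter genes Abca8b, Abca8a, Abca9, Abca6 and Abca5 stand together, and all 5 differences lay above 0, between 0.04 and 0.21. Over all genes, 59.8% lay above 0. The differences of Abca5, Abca6 and Abca8a were within the probe set SD, and that of Abca5 was -0.005 with the loess trend subtracted. Abca14, Abca15 and Abca16 lay between -0.001 and 0.14, Abca17 and Abca3 at -0.06 each, and the sterol partners Abcg5 and Abcg8 at 0.16 and 0.05. The neighbourhood of Abcb1a, Abcb1b and Abcb4 was wider, from 0.06 to 0.79. Some of these neighbours are similar in sequence and could share signal, which was not tested.

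In 3 of the 48 ABC genes (6.25%), Abca1, Abcb9 and Abcf3, the value on one array mirrored that on the other (a sum of 0 within 1e-05). Over all genes this share was 6.03%.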
